A study of Mus musculus with 41 samples.

Results

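The 10 genes followed here were the receptors through which B cells sense BAFF, APRIL and CD40 ligand (Tnfrsf13b, Tnfrsf13c, Tnfrsf17 and Cd40), the adaptor Traf3, the NF-kB subunits Nfkb1, Nfkb2, Rel and Relb, and the NF-kB inhibitor Nfkbia. They were chosen by gene symbol. All 10 were found among the 50763 genes of the count table and in the TPM table. The data were bulk RNA-seq of polyadenylated RNA from mouse spleen B cells sorted into 6 subsets, with 20 libraries labelled 1Mek2 and 20 wild-type (wt) libraries compared, from 8 animals each at 3 to 5 months of age. The mutant genotype is given as Mek1flox/flox Mek2+/- Tg+/Vav1-icre: floxed alleles of Mek1 (the gene Map2k1), 1 intact allele of Mek2 (Map2k2) and a Cre transgene driven by Vav1, which is active across blood cells and not in B cells alone. The labels name no Cre in the wt animals. Libraries labelled 1Mek2 and wt libraries numbered 3 and 3 for Immature (B220+CD93+CD138-), 4 and 4 for germinal center (GC; GL7+FAS+), 3 and 3 for age-associated B cells (ABC, whose gate the labels do not state), 3 and 3 for MarginalZone (CD21+CD23-), 3 and 3 for Plasma (B220+CD138+) and 4 and 4 for Follicular (CD21+CD23+). An Immature library whose name reads Mek1ff was left out.

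As background, BAFF and APRIL are survival factors for B cells. BAFF-R (encoded by Tnfrsf13c) carries the BAFF signal that mature B cells need, TACI (Tnfrsf13b) is prominent on marginal zone B cells, and BCMA (Tnfrsf17) serves plasma cells. CD40 receives help from T cells in the germinal center. TRAF3 holds the kinase NIK (Map3k14) at low levels, and when BAFF-R or CD40 is engaged TRAF3 is removed, p100 (Nfkb2) is processed to p52, and p52 works with RelB; p50 (Nfkb1) and c-Rel (Rel) form dimers of the canonical arm, which IkBa (Nfkbia) retains in the cytoplasm. MEK1 and MEK2 act in another cascade, upstream of ERK.

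Total counts per library ran from 7883989 to 34925667 on whole gene spans and from 7897848 to 29204625 on exons. Exon reads were fewer, set against gene-span counts, in each wt ABC library than in each one labelled 1Mek2. ABC replicate 1 had 9061701 against 22735395 in wt and 17461338 against 22539093 in 1Mek2. Follicular replicate 1 had 15922624 against 25201826 in wt and 15840116 against 19439096 in 1Mek2, while Follicular_wt replicate 4 had 29204625 against 33450184. How far this moved gene-span values was not tested. Levels within a gene are given as CPM (gene-span counts scaled to library depth, TMM-normalised over the 40 libraries), and levels between genes as TPM (exon reads scaled to gene length and depth). The targeted genes were checked first. Averaged over subsets, the 1Mek2 over wt log2 fold change of Map2k2 was 1.10 ± 0.30 (SE; limma, adjusted p = 0.0187), higher against the label, and that of Map2k1 was -0.32 ± 0.18 (limma, adjusted p = 0.341), so the wording "libraries labelled 1Mek2" is kept throughout. Both were counted over whole gene spans, so the floxed stretch was not measured apart. Mean TPM of Map2k1 was lower in 1Mek2 than in wt in MarginalZone (26.4 against 141), Immature (94.7 against 161), Plasma (17.8 against 43.5) and Follicular (67.7 against 89.4). It was higher in ABC (66.1 against 11.9) and near equal in GC (132 against 131). Ranges overlapped except in MarginalZone and Immature. The values split the ABC, MarginalZone, Plasma and Follicular libraries into 2 types, 7 of type 1 and 19 of type 2, which are not in the labels. Within these subsets no animal had libraries of both types. Immature and GC libraries lay on the same index near type 1 (1.95 to 3.75, against 2.78 to 3.92 for type 1 and -4.15 to -0.52 for type 2). Animal 323 had -3.87 in MarginalZone and -1.20 in Plasma, both type 2, but 2.86 in Immature and 3.20 in GC. GC_wt replicate 4 has a library name that reads Mek1ff and was kept as wt. It carries animal number 565, as does the Immature library left out, which is titled 1Mek2. The labels thus give this animal both genotypes, and its place among the wt animals is uncertain. ABC_1Mek2 replicate 3, of type 1, went against its label: it had 1030.0 CPM of Fcer2a (CD23, a follicular marker) and 150.2 of Zeb2 (a marker of age-associated B cells), where the other ABC libraries labelled 1Mek2 had 3.06 and 5.22 of Fcer2a and 2869.6 and 2926 of Zeb2. Genes of plasmacytoid dendritic cells (6 listed) summed to 5299, 1342 and 94.8 CPM in ABC libraries labelled 1Mek2, against 3362 to 4025 in wt ones. Plasma libraries carried 1245 to 1531 CPM of 7 T cell genes (Trbc2 listed at 0) and 2559.9 to 7831 of 7 neutrophil genes when labelled 1Mek2, against 1803 to 3451 and 1515 to 4438 in wt. B cell genes were detected in each subset, though Ms4a1 (CD20) is listed at 0 in the count table while its TPM ran from 4.34 to 2582. In such bulk samples, fewer cells of a type and less RNA per cell cannot be told apart.

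The upstream sequences of Rel, Nfkbia and Nfkb2 are shown because Rel and Nfkbia were the members that differed between genotypes on average, Nfkb2 was lower in Immature and GC than in Follicular libraries of both genotypes, and all are known NF-kB target genes. RefSeq (build GRCm38.p6) had promoter entries for 7 of the 10 members, and each line holds the 250 bases before the start, with matches to the kappa B consensus (the DNA site bound by NF-kB dimers; both strands searched) in capitals.
Rel: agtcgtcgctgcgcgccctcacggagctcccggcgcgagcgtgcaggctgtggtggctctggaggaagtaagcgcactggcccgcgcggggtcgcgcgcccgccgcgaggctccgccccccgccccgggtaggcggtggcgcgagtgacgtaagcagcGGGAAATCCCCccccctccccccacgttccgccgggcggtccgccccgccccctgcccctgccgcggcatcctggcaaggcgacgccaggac
Nfkbia: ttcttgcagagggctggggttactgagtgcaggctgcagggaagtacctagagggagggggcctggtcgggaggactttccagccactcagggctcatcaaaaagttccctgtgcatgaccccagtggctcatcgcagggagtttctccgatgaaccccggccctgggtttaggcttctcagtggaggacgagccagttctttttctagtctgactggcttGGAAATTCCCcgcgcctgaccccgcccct
Nfkb2: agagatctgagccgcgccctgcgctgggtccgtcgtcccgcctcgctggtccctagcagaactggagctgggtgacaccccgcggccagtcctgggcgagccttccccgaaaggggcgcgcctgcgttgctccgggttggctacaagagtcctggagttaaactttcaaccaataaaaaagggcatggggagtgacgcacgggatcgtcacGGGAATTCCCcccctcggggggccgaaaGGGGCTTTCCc
Rel (chr11:23770970-23771219, reverse strand) had 2 matches, at -92 and -91 from the start, that overlap in all but a base at either end. Nfkbia (chr12:55492648-55492897, reverse strand) had 1 match, at -29. Nfkb2 (chr19:46304487-46304736, forward strand, the first of 3 listed starts) had 3 matches, of which the pair at -39 is the same stretch read on either strand and the last is at -11; the second start had 0 matches and the third had 1, at -225. Traf3 also had 1 match (at -10), and Tnfrsf13b, Tnfrsf13c and Tnfrsf17 had none in this window. Of 32851 promoter entries of this length, 5.0% held a match. A match is a description of these letters only.

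Measured per length, Tnfrsf13c, Nfkbia and Tnfrsf13b reached the highest levels of the 10 transcripts, and Traf3 and Relb were among the lowest. Group means of Nfkbia ran from 80.00 to 699 TPM over the 12 groups, those of Tnfrsf13c from 36.2 to 907 and those of Tnfrsf13b from 114 to 578. Cd40 ran from 5.19 to 215 TPM, Rel from 3.03 to 148, Nfkb1 from 12.6 to 71.95 and Nfkb2 from 6.95 to 64.6. Relb lay between 4.43 and 31.2 TPM and Traf3 between 2.27 and 19.7. Tnfrsf17, listed at 0 TPM in all Follicular wt libraries, reached 51.8 TPM in Plasma libraries labelled 1Mek2. The highest group mean was 48.7 times the lowest for Rel and 41.4 times for Cd40, which were both lowest in Plasma, but 5.08 times for Tnfrsf13b and 5.72 times for Nfkb1.

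**Figure D1:**
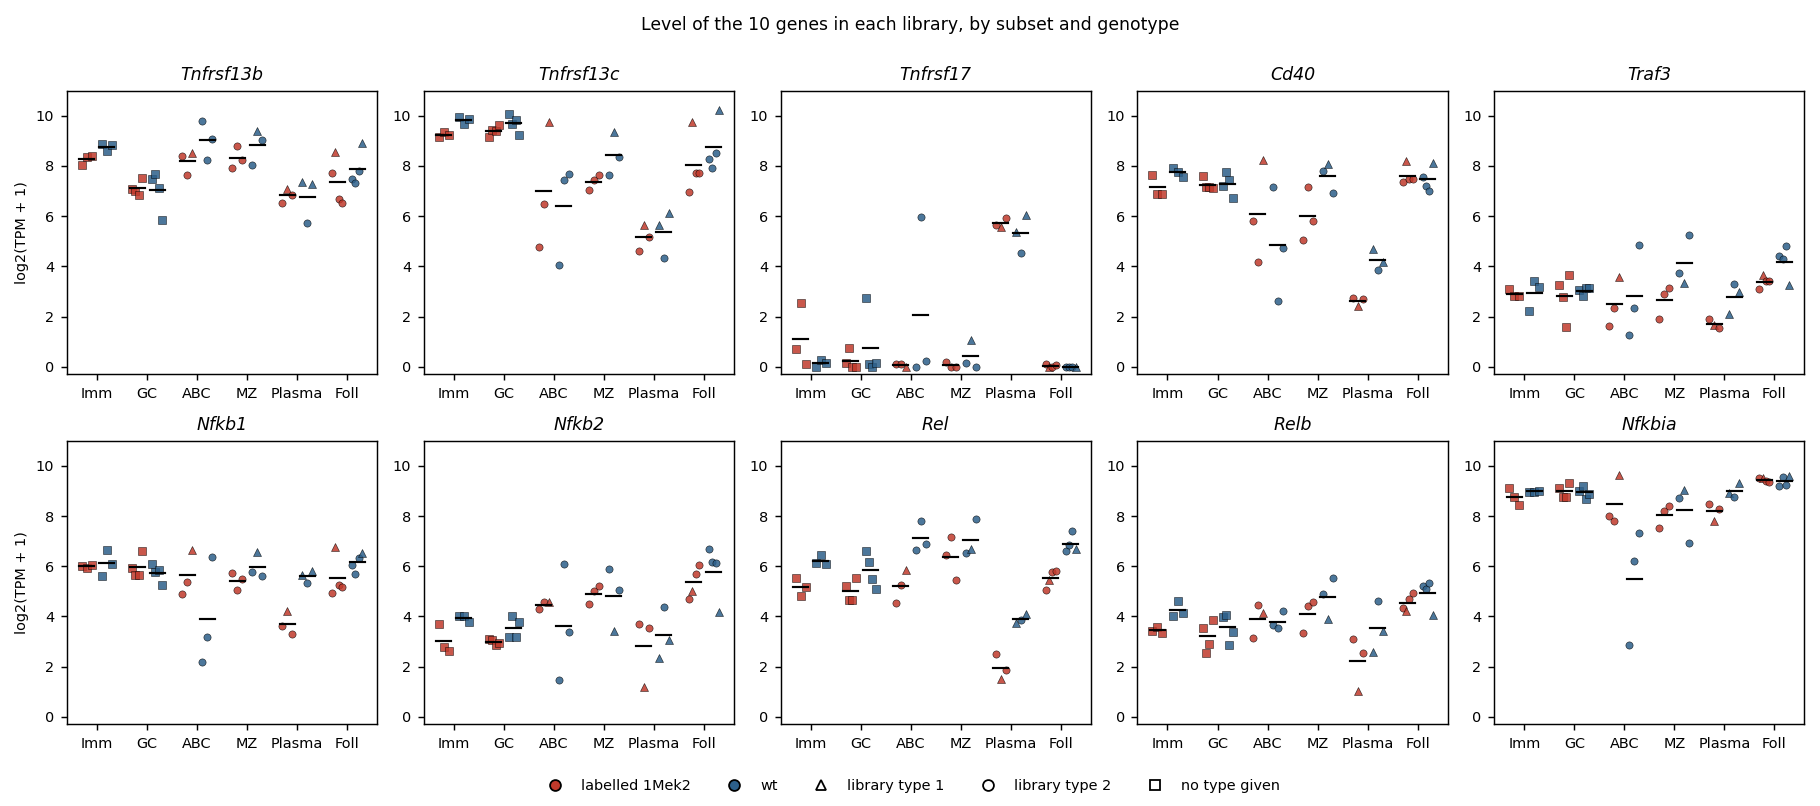
Level of each of the 10 genes as log2(TPM + 1) in every library, by B cell subset (Imm, Immature; MZ, MarginalZone; Foll, Follicular), libraries labelled 1Mek2 in red to the left of wt in blue, lines at group means and marker shapes for library type. Tnfrsf17 stands high in Plasma and in 1 wt ABC library, while Cd40 and Rel are lowest in Plasma.

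Tnfrsf17, which encodes the plasma cell receptor BCMA (chromosome 16, 11131131 to 11137938, forward strand, GRCm39), was the member that separated Plasma libraries most widely. It had 54.3, 95.1 and 82.1 CPM in Plasma libraries labelled 1Mek2, against 0.327, 0.239, 0.162 and 0.206 in Follicular libraries labelled 1Mek2. In wt, Plasma libraries had 41.4, 15.4 and 61.6 CPM and Follicular libraries 0.811, 0.0402, 0 and 0.449, where the count of 0 allows up to 0.106 CPM (3 counts; counting error only). No Plasma library overlapped a Follicular one in either genotype. The share of all genes separated from Follicular in this way is not given, here or below. The log2 fold change of Plasma over Follicular was 8.49 ± 0.50 (SE; edgeR, adjusted p = 0.000113) in 1Mek2 and 7.08 ± 1.16 (SE; edgeR, adjusted p = 0.00332) in wt. Elsewhere its levels were low: 0.925 to 1.81 CPM in GC and 0.325 to 3.33 in Immature libraries labelled 1Mek2, and 0.0648 to 1.84 and 0.0665 to 1.11 in wt. MarginalZone libraries had 0 to 7.07 CPM when labelled 1Mek2 and 0 to 2.58 in wt, and ABC libraries labelled 1Mek2 0.058 to 0.209. An exception was ABC_wt replicate 2, with 42.98 CPM and 62.4 TPM, against 0.215 and 0.271 CPM in the other ABC_wt libraries. GC libraries labelled 1Mek2 also passed the test against Follicular, by 2.55 ± 0.63 (SE; edgeR, adjusted p = 0.00961), with TPM of 0 to 0.705 in GC against 0 to 0.0703 in Follicular; on exon reads the gene was below the filter there. Plasma cell genes (5 listed) summed to 1461 to 2825 CPM in these GC libraries, against 25.8 to 603 in Follicular libraries labelled 1Mek2; their part in the difference was not tested.

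Tnfrsf13c, the gene of the BAFF receptor (chromosome 15, 82105943 to 82108581, reverse strand), was lowest in Plasma and, in all 4 subsets with typed libraries, higher in each type 1 library than in each type 2 library. Means in libraries labelled 1Mek2 were 547 ± 122 in GC, 431 ± 168 in Immature, 339 ± 319 in Follicular, 297 ± 394 in ABC, 159 ± 41.1 in MarginalZone and 81.4 ± 52.7 in Plasma CPM (SD, n = 3 or 4), each range overlapping its neighbour's. In wt they were 461 ± 235 in GC, 397 ± 128 in Immature, 393 ± 358 in Follicular, 269.8 ± 168 in MarginalZone, 81.2 ± 60.8 in ABC and 58.4 ± 36.3 in Plasma CPM. Of neighbours in this order only MarginalZone and ABC did not overlap. Follicular libraries labelled 1Mek2 had 167, 817, 177 and 193 CPM and wt ones 211, 186, 246 and 928, and the highest in each genotype was the type 1 library. Over both genotypes, type 1 libraries had 817 to 928 CPM in Follicular, against 167 to 246 for type 2. The ratio of means was 4.43. The single type 1 libraries stood above all type 2 libraries in ABC (751 against 10.98 to 118) and MarginalZone (451 against 120.4 to 238). In Plasma libraries it had 36.3, 139 and 68.5 CPM when labelled 1Mek2 and 71.5, 17.4 and 86.2 in wt, below each Follicular library of its genotype on this scale, while 1Mek2 libraries overlapped when normalised within the comparison alone. With all libraries the log2 fold change over Follicular was -1.96 ± 0.76 (SE; edgeR, adjusted p = 0.103) in 1Mek2 and -2.65 ± 0.83 (SE; edgeR, adjusted p = 0.0556) in wt, neither past the threshold of 0.05. Among type 2 libraries labelled 1Mek2 (2 Plasma, 3 Follicular) it was -1.63 ± 0.36 (edgeR, adjusted p = 0.0174). In wt the type 1 libraries were 2 of Plasma, at 71.5 and 86.2 CPM, and 1 of Follicular, at 928.

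Tnfrsf13b, which encodes TACI (chromosome 11, 61017567 to 61040435, forward strand), had the smallest ratio of highest to lowest group mean in TPM among the receptors other than Tnfrsf17. Libraries labelled 1Mek2 averaged 592 ± 70.3 in MarginalZone, 546 ± 217 in ABC, 407 ± 164 in Plasma, 347 ± 227 in Follicular, 339 ± 134 in Immature and 166 ± 18.7 in GC CPM (SD, n = 3 or 4). The wt means were 788 ± 466 in ABC, 654 ± 276 in MarginalZone, 336 ± 166 in Follicular, 302 ± 99.4 in Immature, 268 ± 155 in Plasma and 127 ± 72.6 in GC CPM. On this scale MarginalZone and ABC led in both genotypes and GC was lowest, whereas on TPM Plasma was lowest in both, at 114 ± 21.5 in 1Mek2 and 123 ± 61.8 in wt, and Immature (309.6 ± 40.7) lay above ABC (299.8 ± 86.8) in 1Mek2. Of neighbours in the CPM orders only Immature and GC of the 1Mek2 series did not overlap. No subset passed the test against Follicular for this gene in either genotype. Its log2 fold changes over Follicular were 0.63 ± 0.53 in MarginalZone libraries labelled 1Mek2 and 0.89 ± 0.51 in wt ones, and -1.07 ± 0.48 in GC libraries labelled 1Mek2 and -1.16 ± 0.43 in wt ones (SE; edgeR, adjusted p from 0.0628 upward).

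Cd40 (chromosome 2, 164897535 to 164913574, forward strand), the receptor for T cell help, was low in Plasma. Plasma libraries had 12.01, 12.8 and 12.8 CPM when labelled 1Mek2 and 37.4, 15.1 and 24.4 in wt, against 262, 309, 197 and 225 in Follicular libraries labelled 1Mek2 and 222, 218, 179 and 243 in Follicular wt libraries. Every Plasma library lay below every Follicular library of its genotype. The log2 fold change was -4.17 ± 0.40 (SE; edgeR, adjusted p = 0.000259) in 1Mek2 and -2.89 ± 0.40 (SE; edgeR, adjusted p = 0.00161) in wt. Among type 2 libraries labelled 1Mek2 (2 Plasma, 3 Follicular) it was -4.05 ± 0.33 (edgeR, adjusted p = 0.000869). Means in the other subsets ran from 118 ± 14.3 (Immature) to 169.5 ± 76.8 (MarginalZone) CPM in libraries labelled 1Mek2 and from 60.7 ± 33.8 (ABC) to 249.8 ± 26.8 (MarginalZone) in wt, and none of these passed the test against Follicular.

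In the comparison of Plasma with Follicular, 5 of 10 members passed the test in 1Mek2 (1 higher, 4 lower), where 19.9% of all genes tested did (13.9% higher, 5.95% lower), and 3 of 10 in wt (1 higher, 2 lower), where 17.7% did (12.2% higher, 5.53% lower). The median log2 fold change was -1.35 over the members tested and -0.09 over all genes in 1Mek2, and -1.10 over the members tested and -0.01 over all genes in wt. Beside Tnfrsf17 and Cd40, Rel, the gene of c-Rel, passed in both genotypes. Rel had 41.1, 22.1 and 26.04 CPM in Plasma libraries labelled 1Mek2, against 219, 196, 258 and 302 in Follicular libraries labelled 1Mek2, and 106, 72.9 and 100.3 in Plasma wt libraries, against 494, 486, 650.0 and 417 in Follicular wt libraries. The groups did not overlap, and the log2 fold change was -2.88 ± 0.38 (SE; edgeR, adjusted p = 0.000857) in 1Mek2 and -2.25 ± 0.30 (SE; edgeR, adjusted p = 0.00137) in wt. The Plasma over Follicular calls of Tnfrsf17, Cd40 and Rel held without any single library and on exon reads, and in 1Mek2 among type 2 libraries. In 1Mek2, Nfkb1 (p50) and Traf3 passed too, by -1.31 ± 0.33 (SE; edgeR, adjusted p = 0.0191) and -1.25 ± 0.39 (SE; edgeR, adjusted p = 0.0475). These calls were less stable: that of Nfkb1 was lost on exon reads (-0.89 ± 0.56; edgeR, adjusted p = 0.331) and without Follicular_1Mek2 replicate 3 or 4 or Plasma_1Mek2 replicate 1 or 3 (edgeR, adjusted p = 0.0556, 0.0510, 0.0589 and 0.112), and that of Traf3 without any of these, Follicular_1Mek2 replicate 1 or Plasma_1Mek2 replicate 2 (0.0524 to 0.174). The Traf3 call was lost on exon reads too. Pairing the libraries of the animals that gave both subsets raised the count in 1Mek2 to 8 of 10 members, adding Tnfrsf13c, Nfkb2 and Relb with log2 fold changes of -1.88 ± 0.47, -1.93 ± 0.50 and -1.97 ± 0.50 (edgeR with the animal as a block, adjusted p = 0.000459, 0.000804 and 0.00058). Only 2 animals gave both subsets. The paired difference therefore comes from 2 pairs, with little left to estimate the spread, and the higher count is no firmer than the unpaired one. T cell and neutrophil genes summed to at least 1245 and 1515 CPM in each Plasma library, against at most 272 and 41.7 in Follicular, and their part in these differences was not tested.

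**Figure D2:**
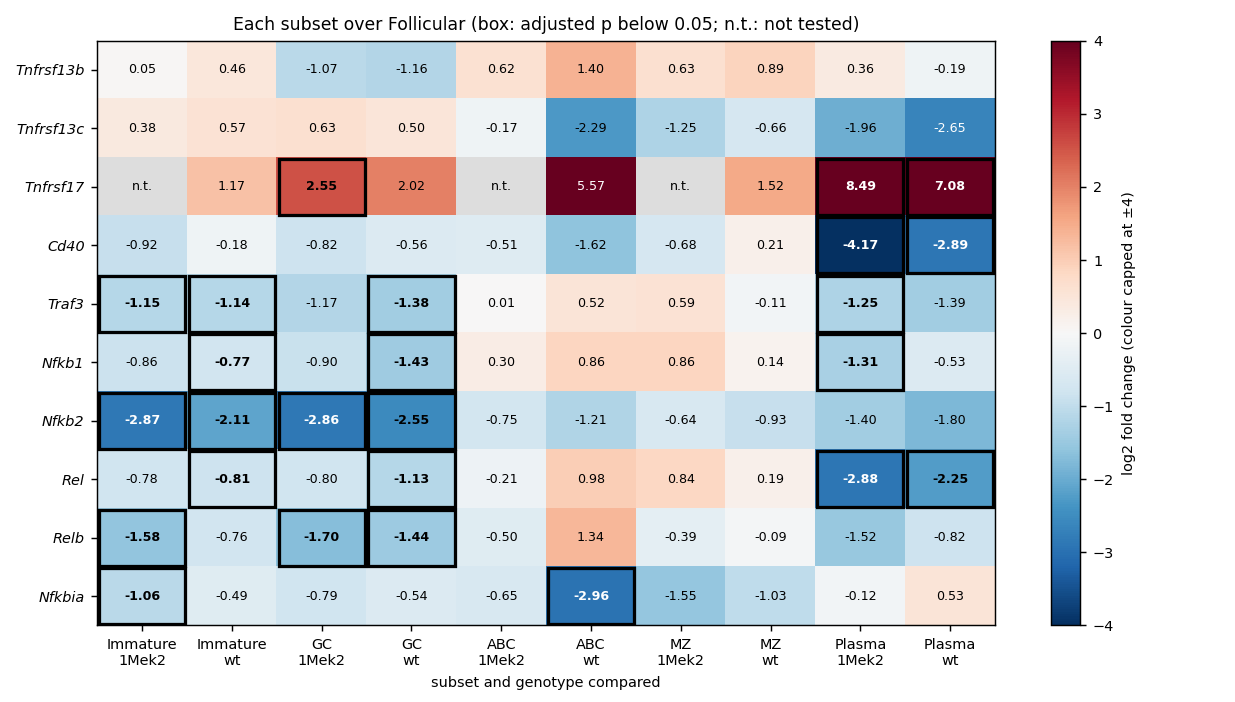
Log2 fold change of each subset over Follicular for the 10 genes (rows) in 1Mek2 and wt (columns), coloured from blue (lower) to red (higher); boxes mark an adjusted p below 0.05 and n.t. a gene below the filter on low counts. Nfkb2 is boxed in all 4 Immature and GC columns, and Tnfrsf17, Cd40 and Rel in both Plasma columns.

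Immature and GC libraries had less of the non-canonical subunits than Follicular libraries. Nfkb2, whose product p100 is the precursor of p52 (chromosome 19, 46285478 to 46300839, forward strand), had 34.7, 31.8 and 19.8 CPM in Immature and 29.7, 39.6, 34.3 and 25.4 in GC libraries labelled 1Mek2, against 195, 172, 246 and 352 in Follicular libraries labelled 1Mek2. In wt it had 46.98, 28.6 and 32.3 in Immature and 14.99, 47.9, 40.7 and 31.5 in GC, against 405, 311, 263 and 77.99 in Follicular. All Immature and GC libraries were below all Follicular libraries of their genotype, and the lowest Follicular library in each was the type 1 library. Immature and GC each shared 0 animals with Follicular in wt and 1 in 1Mek2. Differences between these subsets and between their animals therefore cannot be told apart. The log2 fold change over Follicular was -2.87 ± 0.39 (SE; edgeR, adjusted p = 0.00102) for Immature and -2.86 ± 0.34 (SE; edgeR, adjusted p = 0.000453) for GC in 1Mek2, and -2.11 ± 0.42 (SE; edgeR, adjusted p = 0.00134) for Immature and -2.55 ± 0.45 (SE; edgeR, adjusted p = 0.0015) for GC in wt. These calls held without any single library and on exon reads. Against the type 1 Follicular library alone, the log2 fold change was -2.60 ± 0.46 for Immature and -2.48 ± 0.36 for GC in 1Mek2 (edgeR, adjusted p = 3.52e-06 and 0.0579), and -0.73 ± 0.64 for Immature and -1.31 ± 0.86 for GC in wt (adjusted p = 0.427 and 0.37). This alternative was chosen after seeing the data and assumes that the lone library varies like the others. Nfkb2 overlaps the antisense genes 4833438C02Rik (by 2045 bases) and Psd (by 316), and Traf3 overlaps 4930595D18Rik (by 18127); no strand setting is given, so reads from such partners cannot be told apart.

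Relb, the partner of p52 (chromosome 7, 19340142 to 19363352, reverse strand), showed the same order. It had 43.9, 29.1, 31.01 and 58.1 CPM in GC and 32.3, 61.2 and 32.3 in Immature libraries labelled 1Mek2, against 135, 85.95, 158 and 177 in Follicular libraries labelled 1Mek2. In wt the values were 36.98, 64.6, 46.4 and 21.9 in GC and 57.4, 48.97 and 48.8 in Immature, against 161, 183, 174 and 80.1 in Follicular. The groups did not overlap, with the type 1 library again the lowest of Follicular in each genotype. GC was lower by a log2 fold change of -1.70 ± 0.36 (SE; edgeR, adjusted p = 0.00441) in 1Mek2 and -1.44 ± 0.32 (SE; edgeR, adjusted p = 0.00537) in wt, and Immature by -1.58 ± 0.35 (SE; edgeR, adjusted p = 0.00517) in 1Mek2. In wt Immature the log2 fold change was -0.76 ± 0.29 (SE; edgeR, adjusted p = 0.0537). The 1Mek2 Immature call was lost without Immature_1Mek2 replicate 2 or 4 (adjusted p = 0.0557 and 0.0643), and against the type 1 Follicular library alone none of the 3 passed (log2 fold changes -1.12 ± 0.51 in 1Mek2 GC, -1.01 ± 0.87 in wt GC and -1.09 ± 0.50 in 1Mek2 Immature; edgeR, adjusted p = 0.206, 0.46 and 0.146).

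Over the 10 members, Immature passed against Follicular for 4 in 1Mek2, all lower, where 30.9% of all genes passed and 12.3% passed as lower. In wt it passed for 4, all lower, where 39.4% passed and 7.15% as lower. GC passed for 3 in 1Mek2 (1 higher, 2 lower), where 30.9% did (16.3% higher, 14.6% lower), and for 5 in wt, all lower, where 25.1% did and 10.5% as lower. The median log2 fold change in Immature was -0.92 over the members tested and -0.02 over all genes in 1Mek2, and -0.62 over the members tested and 0.47 over all genes in wt. In GC it was -0.86 over the members tested and -0.09 over all genes in 1Mek2, and -1.14 over the members tested and 0.04 over all genes in wt. Beside Nfkb2 and Relb (and Tnfrsf17 in GC), the calls were of the adaptor Traf3, of Nfkb1 and Rel, and of the inhibitor Nfkbia. Traf3 had 51.1, 53.8 and 53.9 CPM in Immature libraries labelled 1Mek2, against 125, 72.4, 169 and 178 in Follicular ones, and 40.00, 69.4 and 71.4 in Immature and 50.8, 153, 46.4 and 33.2 in GC wt libraries, against 267, 287, 297 and 91.6 in Follicular wt libraries; wt GC overlapped Follicular, and wt Immature did so when normalised within the comparison alone. Its log2 fold changes were -1.15 ± 0.36 (SE; edgeR, adjusted p = 0.0306) in 1Mek2 Immature, -1.14 ± 0.38 (SE; edgeR, adjusted p = 0.0312) in wt Immature and -1.38 ± 0.43 (SE; edgeR, adjusted p = 0.0319) in wt GC. Nfkb1 was lower in wt Immature by -0.77 ± 0.27 (SE; edgeR, adjusted p = 0.0401) and in wt GC by -1.43 ± 0.29 (SE; edgeR, adjusted p = 0.00338), and Rel in wt Immature by -0.81 ± 0.25 (SE; edgeR, adjusted p = 0.0203) and in wt GC by -1.13 ± 0.32 (SE; edgeR, adjusted p = 0.0209). Nfkbia was lower in 1Mek2 Immature by -1.06 ± 0.34 (SE; edgeR, adjusted p = 0.0317), with 233, 332 and 194 CPM against 793, 566, 471 and 499 in Follicular. Against the type 1 Follicular library alone, Nfkb2 and Nfkbia in 1Mek2 Immature kept their calls, and of the other calls in these 4 comparisons none did. On exon reads the calls of Traf3 and Nfkbia in 1Mek2 Immature, of Traf3, Nfkb1 and Rel in wt Immature and of Nfkb1 in wt GC were lost (edgeR, adjusted p = 0.173, 0.09, 0.109, 0.978, 0.163 and 0.302). The exon log2 fold change of Nfkb1 was 0.02 ± 0.33 in wt Immature, opposite in sign to that on gene spans, and -0.46 ± 0.30 in wt GC.

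Several of these calls also rested on single libraries. Traf3 in 1Mek2 Immature was lost without any Immature library or without Follicular_1Mek2 replicate 1, 3 or 4 (edgeR, adjusted p from 0.0695 to 0.184). In wt Immature it was lost without Immature_wt replicate 1 or 3 or Follicular_wt replicate 1 or 3 (0.0551 to 0.1), and in wt GC without GC_wt replicate 1, 3 or 4 or Follicular_wt replicate 1, 2 or 3 (0.0573 to 0.091). Nfkb1 in wt Immature was lost without Immature_wt replicate 1 or 3 or Follicular_wt replicate 1 or 3 (0.0894 to 0.163). Rel in wt was lost without Follicular_wt replicate 3, at 0.0667 for Immature and 0.0645 for GC, without Immature_wt replicate 3 (0.0968) and without GC_wt replicate 3 (0.0502). Nfkbia in 1Mek2 Immature was lost without any Immature library or without Follicular_1Mek2 replicate 1 or 4 (0.0546 to 0.275). Leaving out the type 1 library itself moved the counts the other way: without Follicular_1Mek2 replicate 2, 8 members passed in Immature and 8 in GC, and without Follicular_wt replicate 4, 8 passed in Immature.

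Across all 6 subsets, Nfkb1 (p50, chromosome 3, 135290416 to 135397422, reverse strand) averaged 689 ± 44.3 in MarginalZone, 431 ± 80.5 in ABC, 356 ± 37.8 in Follicular, 183 ± 69.9 in GC, 178 ± 59.9 in Immature and 129 ± 24.5 in Plasma CPM in libraries labelled 1Mek2 (SD, n = 3 or 4). Neighbours without overlap were MarginalZone over ABC, then Follicular over GC. In wt it averaged 741 ± 520.4 in ABC, 498 ± 104 in MarginalZone, 464 ± 95.8 in Follicular, 276 ± 30.2 in Plasma, 159 ± 23.7 in Immature and 133 ± 50.5 in GC CPM. Neighbours without overlap were Follicular over Plasma, then Plasma over Immature. Traf3 (chromosome 12, 111132799 to 111233589, forward strand) averaged 217 ± 51.7 in MarginalZone, 136 ± 48.4 in Follicular, 133 ± 33.3 in ABC, 57.00 ± 34.5 in GC, 52.96 ± 1.58 in Immature and 51.1 ± 13.4 in Plasma CPM in libraries labelled 1Mek2. No neighbours in this order were free of overlap. In wt it averaged 283 ± 153 in ABC, 236 ± 96.7 in Follicular, 209 ± 102 in MarginalZone, 75.8 ± 32.8 in Plasma, 70.8 ± 55.2 in GC and 60.3 ± 17.6 in Immature CPM. No neighbours in this order were free of overlap. The orders of both genes differed on exons. Mean TPM of Nfkb1 was 64.1 (GC), 62.9 (Immature), 55.95 (ABC), 52.3 (Follicular), 42.7 (MarginalZone) and 12.6 (Plasma) in libraries labelled 1Mek2, and 71.95 (Immature), 71.9 (Follicular), 65.1 (MarginalZone), 53.5 (GC), 47.96 (Plasma) and 30.8 (ABC) in wt. Mean TPM of Traf3 was 9.53 (Follicular), 7.01 (GC), 6.58 (Immature), 5.70 (ABC), 5.67 (MarginalZone) and 2.27 (Plasma) in libraries labelled 1Mek2, and 19.7 (MarginalZone), 18.6 (Follicular), 11.1 (ABC), 7.25 (Immature), 7.22 (GC) and 6.31 (Plasma) in wt. On this scale MarginalZone libraries labelled 1Mek2 stood next to Plasma at the low end, and ABC was lowest for Nfkb1 in wt. Rel (chromosome 11, 23686847 to 23720969, reverse strand) averaged 465 ± 181 in MarginalZone, 244 ± 46.6 in Follicular, 203 ± 52.8 in ABC, 135 ± 22.1 in GC, 125 ± 13.4 in Immature and 29.7 ± 10.002 in Plasma CPM in libraries labelled 1Mek2. Neighbours without overlap were Immature over Plasma. In wt it averaged 843 ± 426 in ABC, 579 ± 262 in MarginalZone, 512 ± 98.3 in Follicular, 183 ± 84.1 in GC, 174 ± 22.96 in Immature and 93.03 ± 17.7 in Plasma CPM. Neighbours without overlap were Follicular over GC, then Immature over Plasma.

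**Figure D3:**
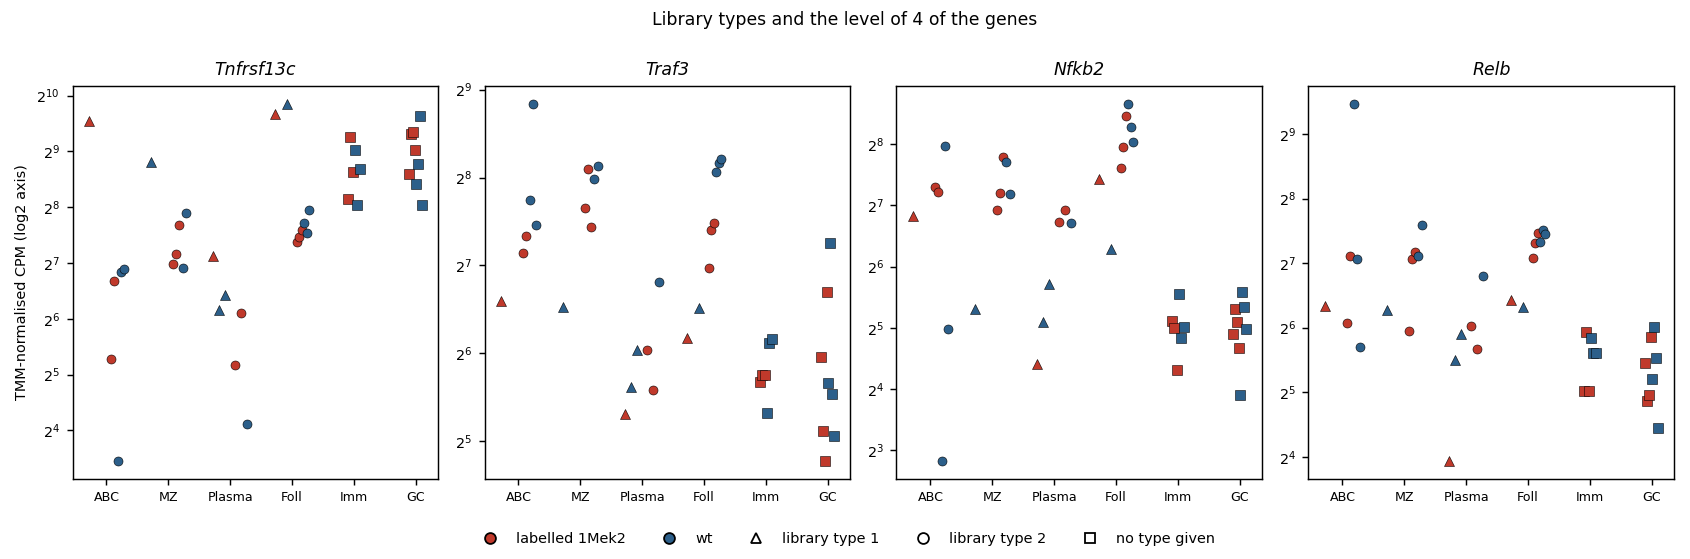
CPM (log2 axis) of Tnfrsf13c, Traf3, Nfkb2 and Relb in each library by subset, with type 1 libraries (triangles) left of type 2 libraries (circles) and the untyped Immature and GC libraries as squares; red, labelled 1Mek2; blue, wt. In Follicular, type 1 libraries lie at 817 and 928 CPM of Tnfrsf13c, above the 167 to 246 of type 2, and below type 2 for the other 3 genes.

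Few of the members passed the test between ABC or MarginalZone and Follicular. In 1Mek2, 0 of 9 members tested passed in ABC, where 0% of genes did, and 0 of 9 in MarginalZone, where 2.78% did; 0 and 3 of them had an unadjusted p under 0.05 in edgeR, and DESeq2 called 1, Nfkbia in MarginalZone (-1.54, adjusted p = 0.00768). Without ABC_1Mek2 replicate 3, whose markers went against its label, the ABC count was again 0. In wt, 1 of 10 passed in ABC, as lower, where 20.2% of genes did and 8.3% as lower, and 0 of 10 in MarginalZone, where 0.34% did and where no member had an unadjusted p under 0.05 in edgeR. The wt ABC call was Nfkbia, at 4.09, 44.6 and 101 CPM in ABC against 328, 470.3, 329.6 and 499.6 in Follicular. No library overlapped, and the log2 fold change was -2.96 ± 0.88 (SE; edgeR, adjusted p = 0.0388). The call was lost without ABC_wt replicate 2 or any Follicular_wt library (adjusted p from 0.0636 to 0.098) and on exon reads (0.0726), and with the animal as a block it was -3.43 ± 0.99 (edgeR, adjusted p = 0.0129). Plasmacytoid dendritic cell genes summed to 3362 to 4025 CPM in these ABC libraries, against 88.7 to 213 in Follicular wt libraries, and their part in the result was not tested.

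Between genotypes, the clearest difference among the 10 genes was in Rel, which was lower in libraries labelled 1Mek2. In Follicular it had 219, 196, 258 and 302 CPM when labelled 1Mek2, against 494, 486, 650.0 and 417 in wt. In Plasma it had 41.1, 22.1 and 26.04, against 106, 72.9 and 100.3 in wt. In ABC it had 153, 199 and 258, against 1286, 808 and 436 in wt. In each of these subsets all libraries labelled 1Mek2 were below all wt libraries. Immature libraries showed the same separation, with 115, 140.3 and 119.6 CPM in 1Mek2 against 199.8, 164 and 157 in wt. GC libraries overlapped, at 133, 121, 118 and 166 against 178, 275, 207 and 72.7, through the wt library whose name reads Mek1ff (replicate 4). MarginalZone libraries overlapped too, at 433, 660.3 and 302 against 395, 463 and 879. Separation without overlap toward lower values was found for 4.25% of all genes tested in Follicular, 10.2% in Plasma, 10.8% in ABC and 6.24% in Immature. On the TPM scale, too, Rel did not overlap in these 4 subsets, with 32.3 to 54.9 in Follicular libraries labelled 1Mek2 against 95.9 to 166 in wt.

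The log2 fold change of Rel, 1Mek2 over wt, was negative in 6 of 6 subsets: -0.55 ± 0.36 in Immature, -0.51 ± 0.35 in GC, -2.01 ± 0.83 in ABC, -0.30 ± 0.46 in MarginalZone, -1.54 ± 0.37 in Plasma and -0.92 ± 0.25 in Follicular (SE; edgeR, adjusted p from 0.103 to 0.882). Within a subset none of these passed. DESeq2 called Rel in Follicular (-0.91, adjusted p = 0.0182) and in Plasma (-1.55, adjusted p = 0.00501). Averaged over the 6 subsets with the animal as a random block, Rel was lower by a log2 fold change of -0.91 ± 0.19 (SE; limma, adjusted p = 0.00165), equal to 1.88-fold. It was one of 2 of 10 members to pass, where 5.99% of the 25181 genes tested did and 1.36% passed as lower. The call held in every alternative tried, among them exon reads (-0.91, adjusted p = 0.00945), a term for library type (-0.93, adjusted p = 0.000202), a term for the 3 male animals (-0.91, adjusted p = 0.00231) and the 5 subsets without ABC (-0.71, adjusted p = 0.0354). Leaving out each of the 16 animals gave -1.01 to -0.82, with adjusted p from 0.000124 to 0.0141.

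Where both genotypes had libraries of a type, each 1Mek2 library had less Rel than each wt one in Follicular and Plasma (types 1 and 2) and ABC (type 2). In MarginalZone they overlapped, where type 2 libraries had 302 to 660.3 CPM in 1Mek2 against 395 to 879 in wt. Type 1 Follicular held 1 library against 1, where overlap cannot occur. Plasma held 1 against 2 in type 1 and 2 against 1 in type 2, where separation comes easily. The share of all genes separated within a type was not counted, so this is a description only. Among Follicular libraries, the type 1 library labelled 1Mek2 had 196 CPM against 417 in the wt one, and type 2 libraries had 219 to 302 against 486 to 650. Among Plasma libraries, type 1 had 22.1 in 1Mek2 against 100.3 and 106 in wt, and type 2 had 26.0 and 41.1 against 72.9. Without ABC_1Mek2 replicate 3, the ABC log2 fold change was -2.29 (edgeR, adjusted p = 0.265), and without GC_wt replicate 4 the GC value was -0.85 (adjusted p = 0.469). Other markers moved with genotype in some subsets. In Plasma, 5 natural killer cell genes summed to 53.6 to 158 CPM in 1Mek2 against 306 to 599.9 in wt, and 6 B cell genes to 1795 to 2273 against 486 to 839. In ABC, B cell genes summed to 7513 to 9488 in 1Mek2 against 3342 to 4639 in wt. Immature libraries had 1619.7 to 6252 CPM of plasma cell genes in 1Mek2 against 201 to 858 in wt. In Follicular, B cell genes summed to 9496 to 13149 CPM in 1Mek2 against 6307 to 9904 in wt, T cell genes to 30.5 to 272 against 15.2 to 89.2, neutrophil genes to 1.44 to 41.7 against 0.168 to 1.88 and 6 erythroid genes to 39.3 to 422 against 137 to 212. The part of these cells in the Rel difference was not tested.

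**Figure D4:**
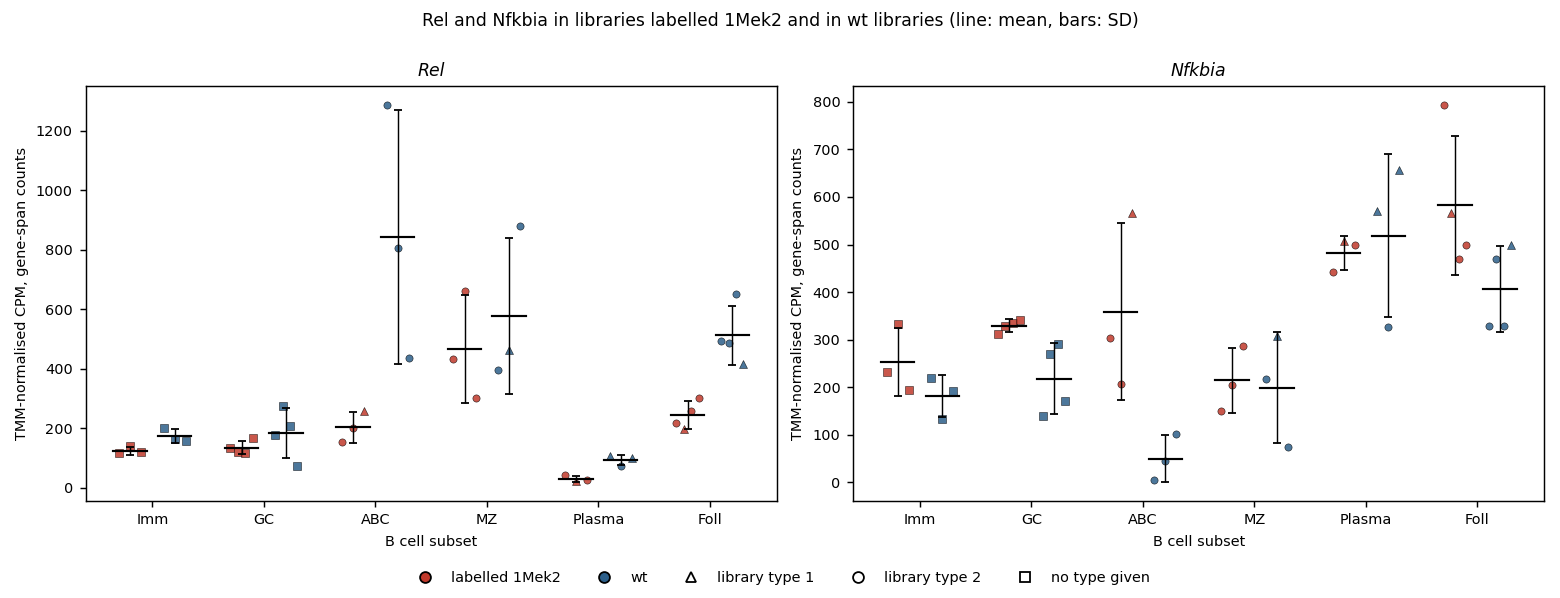
TMM-normalised CPM of Rel (left) and Nfkbia (right) in each library by subset, 1Mek2 in red left of wt in blue, with lines at means, bars for SD and shapes for library type. Rel libraries labelled 1Mek2 lie below all wt libraries in Immature, ABC, Plasma and Follicular, and Nfkbia libraries labelled 1Mek2 lie above in GC and ABC.

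Nfkbia, which encodes the inhibitor IkBa (chromosome 12, 55536194 to 55539432, reverse strand), went the other way on average. In ABC it had 304, 206 and 566 CPM in libraries labelled 1Mek2, against 4.09, 44.6 and 101 in wt. In GC it had 311, 328, 336 and 342, against 139, 269.5, 292 and 172 in wt. Both subsets separated without overlap, as did 15.6% and 4.66% of all genes toward higher values. On TPM, ABC separated too (222 to 795 in 1Mek2 against 6.37 to 161 in wt), GC overlapped (428 to 638 against 408 to 581), and in Plasma all libraries labelled 1Mek2 lay below wt (222 to 353 against 436 to 633). On CPM it had in Follicular 793, 566, 471 and 499 in 1Mek2 against 328, 470.3, 329.6 and 499.6 in wt, in Immature 233, 332 and 194 against 220.3, 133 and 193, in MarginalZone 151, 206 and 288 against 216, 307 and 74.8 and in Plasma 442, 507 and 499 against 571, 327 and 657, with overlap in all 4. The log2 fold changes were 0.40 ± 0.36 in Immature, 0.51 ± 0.29 in GC, 3.10 ± 1.12 in ABC, 0.06 ± 0.57 in MarginalZone, 0.01 ± 0.37 in Plasma and 0.64 ± 0.33 in Follicular (SE; edgeR, adjusted p from 0.167 to 0.994). The average was 0.89 ± 0.22 (SE; limma, adjusted p = 0.00942), equal to 1.85-fold, where 4.63% of genes passed as higher. It rested on ABC: without that subset the average was 0.38 (limma, adjusted p = 0.328), and without animal 412, which gave ABC_wt replicate 1, it was 0.62 (limma, adjusted p = 0.0605). Without ABC_1Mek2 replicate 3 the ABC value was 2.43 (edgeR, adjusted p = 0.414). A test of whether the genotype effect differed between subsets gave an adjusted p of 0.133 for Nfkbia and 0.301 for Rel (edgeR, interaction).

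The other 8 members did not pass on average. Their log2 fold changes were 0.14 ± 0.23 for Tnfrsf13b, 0.27 ± 0.35 for Tnfrsf13c, 0.36 ± 0.66 for Tnfrsf17, 0.12 ± 0.22 for Cd40, -0.38 ± 0.23 for Traf3, -0.15 ± 0.16 for Nfkb1, 0.48 ± 0.31 for Nfkb2 and -0.33 ± 0.26 for Relb (SE; limma, adjusted p from 0.385 upward). The median over the 10 members was 0.13. Within single subsets edgeR called 0 of the members tested in Immature, GC, ABC, MarginalZone, Plasma and Follicular, where it called 0.933%, 0.054%, 0%, 0%, 0.0605% and 0% of all genes. Members with an unadjusted p under 0.05 numbered 0, 0, 2, 0, 2 and 1 in that order, and DESeq2 called 0, 0, 0, 0, 1 and 1. Nfkb1 was among them in Plasma, at 147, 139 and 101 CPM in 1Mek2 against 292, 294 and 241 in wt, without overlap (log2 fold change -0.97 ± 0.32 (SE; edgeR, adjusted p = 0.21)). In Plasma 10.2% of genes separated toward lower values. The Nfkb1 groups in Plasma overlapped on CPM of exon reads, but not on TPM (8.84 to 17.6 in 1Mek2 against 39.3 to 55.4 in wt). In MarginalZone Nfkb1 was on the other side, at 734, 645 and 687 CPM in 1Mek2 against 521, 385 and 589 in wt, also without overlap, as in 7.25% of genes toward higher values (log2 fold change 0.48 ± 0.40 (SE; edgeR, adjusted p = 0.748)). On exons this separation was absent: TPM was 32.03 to 51.8 in 1Mek2 against 47.3 to 93.9 in wt, with the lower mean in 1Mek2, and the exon log2 fold change was 0.13 ± 0.57 (edgeR, adjusted p = 0.96). The interaction test called 0 of 10 members, where 2% of genes passed; 3 had an unadjusted p under 0.05, and on exon reads it called Tnfrsf17.

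**Figure D5:**
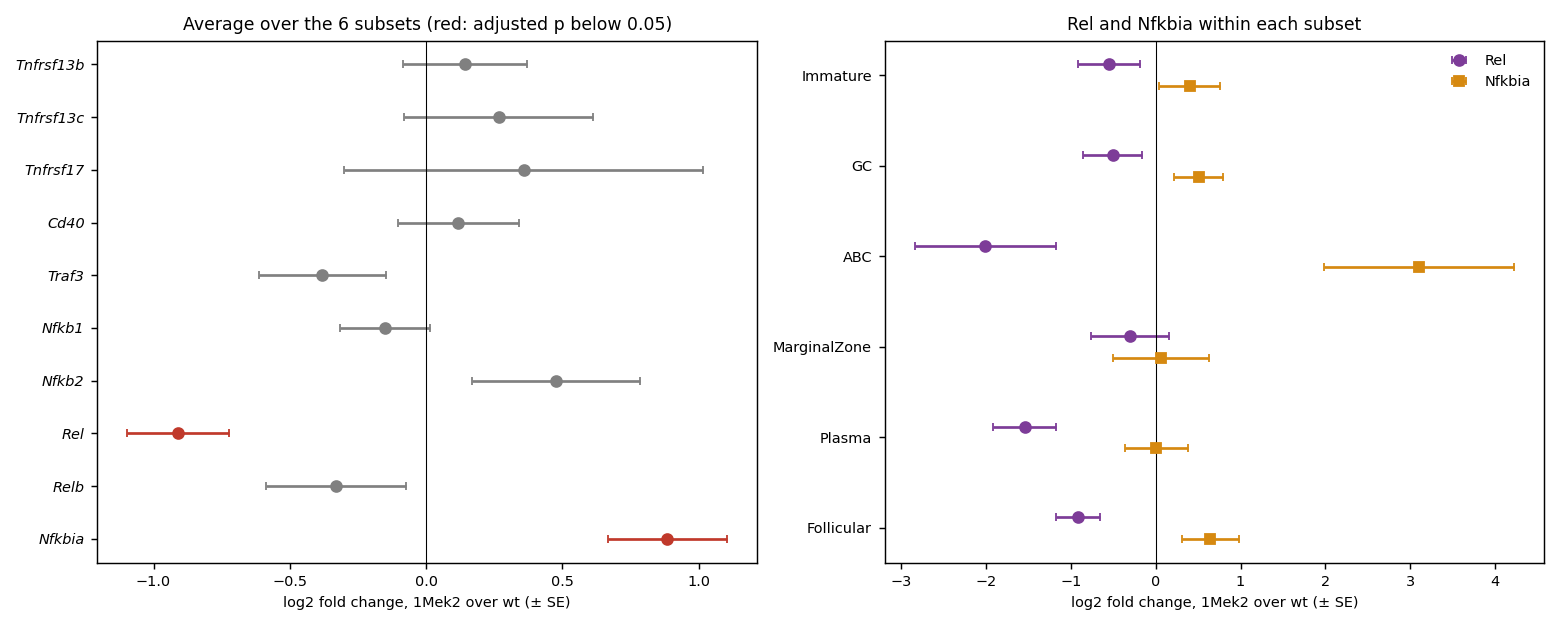
Left, log2 fold change of libraries labelled 1Mek2 over wt averaged over the 6 subsets for each of the 10 genes, with SE bars, red where the adjusted p was below 0.05 (Rel and Nfkbia). Right, the same measure within each subset for Rel (circles) and Nfkbia (squares), where Rel lies left of 0 in all 6 and the widest bars are those of ABC.

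Of 47 other genes of the pathway, 44 were tested for the average genotype effect, 5 higher and 1 lower in libraries labelled 1Mek2, where 4.63% of all genes passed as higher and 1.36% as lower. Higher were Pim2, a survival kinase and NF-kB target, by a log2 fold change of 1.33 ± 0.32 (adjusted p = 0.00815), the inhibitor Nfkbib by 1.07 ± 0.29 (adjusted p = 0.0182), the adaptor Traf1 by 1.06 ± 0.33 (adjusted p = 0.0491) and Ikbkg, the scaffold of the IkB kinase complex, by 0.92 ± 0.27 (adjusted p = 0.0351) (SE; limma). Malt1, the protease that links antigen receptors to NF-kB, was lower by -0.65 ± 0.18 (adjusted p = 0.0208). In ABC, mean CPM in 1Mek2 against wt was 162 against 7.82 for Pim2 and 46.3 against 4.43 for Ikbkg. It was 42.2 against 6.32 for Traf1 and 213 against 993 for Malt1. Means went the other way in Plasma for Pim2 (122 against 135) and Traf1 (59.7 against 88.1). They did so in MarginalZone for Ikbkg (34.2 against 51.3) and Malt1 (737 against 661). Nfkbib had the higher mean in 1Mek2 in every subset. Averages of these genes without ABC are not reported here. The median over the 44 pathway genes tested was 0.12, against -0.12 over all genes tested. Within subsets, 3 of 44 tested passed in Immature (2 higher, 1 lower), where 0.81% of all genes passed as higher and 0.123% as lower, and none passed in the others. Immature libraries labelled 1Mek2 had more Fas, a death receptor (65.5 to 114 CPM against 15.7 to 43.9 in wt; log2 fold change 1.75 ± 0.41 (adjusted p = 0.0112)), more Cd83, an activation marker (1312 to 1717 against 336 to 869; 1.48 ± 0.36 (adjusted p = 0.0169)) and less Ccr7, a homing receptor (42.01 to 96.6 against 118 to 230.4; -1.42 ± 0.39 (adjusted p = 0.0431)), by edgeR. Germinal center genes (5 listed) summed to 724 to 1116 CPM in these libraries against 101 to 398 in wt; their part was not tested.

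Against Follicular, Map3k14, the gene of the kinase NIK that TRAF3 restrains, was lower in Immature and GC in 1Mek2. In 1Mek2 it had 12.8 to 33.6 CPM in Immature and 22.99 to 50.6 in GC, against 107 to 247 in Follicular, with log2 fold changes of -2.41 ± 0.49 (adjusted p = 0.00364) and -2.31 ± 0.39 (adjusted p = 0.00151) (edgeR). In wt the log2 fold change was -1.46 ± 0.36 (adjusted p = 0.00554) for Immature and -1.70 ± 0.44 (adjusted p = 0.0127) for GC, the GC value chosen after seeing the data. Of the 47 genes, 2 of 43 tested were higher and 10 lower in 1Mek2 Immature, where 18.6% of all genes passed as higher and 12.3% as lower. In wt Immature 1 of 44 tested were higher and 12 lower, where 32.3% and 7.15% of all genes did. In 1Mek2 GC 6 of 44 tested were higher and 14 lower, against 16.3% and 14.6% of all genes. In wt GC 7 of 44 tested were higher and 17 lower, against 14.6% and 10.5%. Bcl2, a survival factor, was lower in all 4, by log2 fold changes of -1.86 ± 0.44 (adjusted p = 0.00684) in 1Mek2 Immature, -1.55 ± 0.36 (adjusted p = 0.00336) in wt Immature, -2.44 ± 0.84 (adjusted p = 0.0436) in 1Mek2 GC and -3.89 ± 0.46 (adjusted p = 7.84e-05) in wt GC (edgeR). Fas was higher in GC, by 3.95 ± 0.68 (adjusted p = 0.00164) in 1Mek2 and 5.30 ± 0.41 (adjusted p = 2.85e-06) in wt, and the GC gate selects on FAS protein. GC also had less Ccr7, by -2.76 ± 0.67 (adjusted p = 0.00864) in 1Mek2 and -4.01 ± 0.71 (adjusted p = 0.00148) in wt.

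In Plasma, 6 of 44 tested were higher and 9 lower than in Follicular in 1Mek2, where 13.9% of all genes passed as higher and 5.95% as lower. In wt 8 of 44 tested were higher and 7 lower, where 12.2% and 5.53% of all genes did. Icosl, the ligand of ICOS on T cells, was lower by log2 fold changes of -4.58 ± 0.44 (adjusted p = 0.000259) in 1Mek2 and -3.40 ± 0.32 (adjusted p = 0.000308) in wt, and Cd86, a costimulatory ligand, by -2.27 ± 0.56 (adjusted p = 0.0165) in 1Mek2 and -1.66 ± 0.44 (adjusted p = 0.0302) in wt (edgeR). Cd80 went the other way, higher by 2.87 ± 0.50 (adjusted p = 0.00308) in 1Mek2 and 3.82 ± 0.56 (adjusted p = 0.002) in wt (edgeR). In wt, Bcl2a1a was higher by 4.51 ± 0.70 (adjusted p = 0.00248) and Fas by 2.98 ± 0.47 (adjusted p = 0.00268) (edgeR). Irf4, a factor needed by plasma cells, was higher in 1Mek2 by 2.54 ± 0.48 (adjusted p = 0.00441). The ligands Cd40lg and Tnfsf13b (BAFF) were higher in 1Mek2 by 6.62 ± 0.68 (adjusted p = 0.000333) and 4.71 ± 0.97 (adjusted p = 0.00675), and Cd40lg in wt by 5.74 ± 1.10 (adjusted p = 0.00687). Cd40lg is known from activated T cells and Tnfsf13b from myeloid cells including neutrophils, whose genes were abundant in the Plasma libraries as given above; the part of these cells was not tested. In MarginalZone, where 1.4% of all genes passed as higher and 1.39% as lower in 1Mek2, 1 of 42 tested was higher (Malt1, 1.69 ± 0.35 (adjusted p = 0.0351)) and 2 lower (Ccr7, -3.39 ± 0.69 (adjusted p = 0.0345), and Tab1, -2.92 ± 0.64 (adjusted p = 0.039)) in 1Mek2 and none in wt. In ABC none passed in 1Mek2, and in wt, where 11.9% of all genes passed as higher and 8.3% as lower, 3 of 43 tested were higher, among them Bcl10 by 1.86 ± 0.54 (adjusted p = 0.0356) and Malt1 by 1.71 ± 0.43 (adjusted p = 0.0222), and 2 lower, among them Ikbkg by -3.62 ± 1.17 (adjusted p = 0.0488).

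For the BAFF and APRIL receptors, the genes with the most similar pattern over the 12 group means of log2(TPM + 1) were listed from 13612 genes. They were Carmil1 (r = 0.94), Slc37a2 (r = 0.93) and Sema4b (r = 0.92) for Tnfrsf13b, Swap70 (r = 0.98), Txndc16 (r = 0.98) and Ttpal (r = 0.98) for Tnfrsf13c and Ighv5-3 (r = 0.99), Prlr (r = 0.98) and Orm1 (r = 0.96) for Tnfrsf17. These correlations describe 12 points that share libraries, library types and depth, and carry no test. The pattern of Tnfrsf13c includes the difference between library types.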

How the data were processed

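RNA-seq libraries of sorted mouse spleen B cells were described with 2 tables. The authors deposited raw counts per gene over whole gene spans, and TPM per gene on exons with gene lengths. Per the submitters' processing notes, featureCounts 2.0.3 was among the tools, with the aligner STAR 2.7.11a, the trimmer Trim Galore 0.6.5 and build GRCm39; the strand setting is not given in the sources used here. From 41 libraries, 40 were compared, and 0 columns of other samples were found. Multiplying TPM by length gave whole exon reads (tolerance 0.02) for 100.0% of values in each library, which served as an alternative. Up to 5.27% of TPM in a library lay in 6 entries that name no gene; these were left out.

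Counts were tested with edgeR 4.0.16 (quasi-likelihood, TMM, filterByExpr) between 2 groups at a time in R 4.3.3, and the average genotype effect with limma 3.58.1 (voom, animal as a random block), over all genes with Benjamini-Hochberg adjustment and a threshold of 0.05. The interaction test was an edgeR fit of all 12 groups with no term for animal. Libraries from the same animal entered it as independent. DESeq2 1.42.0, other scalings and filters, exon reads, blocks, library types and left-out libraries were alternatives. The tests were tried on simulated data. The numbers in the library names were read as animals, and replicates within a group carry different numbers. P-values and SE measure the spread between these samples. The limit given for a count of 0 covers counting error only. Animals that gave both subsets numbered 2 each for ABC, MarginalZone and Plasma against Follicular in 1Mek2. In wt they numbered 3 for ABC and 2 for MarginalZone. In these comparisons animals pair part of the libraries, and correlations of paired deviations ran from -0.08 to 0.69. Elsewhere replicate numbers did not pair them.

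All 10 members are named. Of the other pathway genes, those past the threshold with a mean of at least 5 CPM were named, up to 4 in each direction by size. One gene that this rule names is not reported here. The members and lists were chosen with earlier results of these data known. Upstream sequences are from RefSeq.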

Additional observations from a re-analysis of the deposited data

Results flagged for a closer look

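Within groups of 4 libraries, 5 of 40 group and gene combinations had a library far from the others; chance gives about 1 in 20. Tnfrsf13b had 582.7 CPM in Follicular_wt replicate 4, against 234.7 to 279.5 in the other Follicular wt libraries. Tnfrsf13c had 928.4 CPM in the same library, against 186.2 to 246.0, and 817.4 CPM in Follicular_1Mek2 replicate 2, against 167.1 to 193.4 in the other Follicular libraries labelled 1Mek2. Traf3 had 91.6 CPM in Follicular_wt replicate 4, against 267.5 to 296.6 in the others, and 152.8 CPM in GC_wt replicate 2, against 33.2 to 50.8. Both Follicular libraries are of type 1.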

How the results depend on the processing

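Of 524 single-gene values under the alternatives, 436 kept their direction and their side of the threshold, 77 lost the threshold, 2 gained it and 9 changed sign; the causes were not tested. The changes of sign of Nfkbia and Rel were of values that had not passed the threshold. Nfkbia in MarginalZone (1Mek2 over wt) was -0.036 with no filter on low counts, and in Plasma -0.013 with no filter and -0.00135 on exon reads; leaving out single libraries gave -0.32 to 0.57 in MarginalZone and -0.24 to 0.23 in Plasma. Rel in MarginalZone ran from -0.55 to 0.069 without single libraries, and was positive without MarginalZone_wt replicate 3. Nfkb1 in wt Immature against Follicular had passed at -0.77 ± 0.27 (SE; edgeR, adjusted p = 0.0401) on gene spans, and was 0.018 on exon reads.

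The counts of members called moved as follows. DESeq2 called 1 in the genotype comparisons of Follicular and Plasma, and 5 in GC 1Mek2, 1 in MarginalZone 1Mek2 and 6 in Plasma wt against Follicular. RLE size factors gave 2 in Immature 1Mek2. With no filter there were 1 in MarginalZone 1Mek2, 3 in ABC wt and 5 in Plasma wt. Exon reads gave 2 in Immature 1Mek2, 3 in Plasma 1Mek2, 1 in Immature wt and 1 in the interaction. Type 2 libraries alone gave 0 in ABC wt. The type 1 Follicular library as sole reference gave 0 in GC 1Mek2, Immature wt and GC wt, and the average without ABC called 1; both were chosen after seeing the data. With the replicate block the counts were 2 in Immature 1Mek2, 8 in Plasma 1Mek2, 7 in Immature wt and 6 in Plasma wt. Of these, only Plasma 1Mek2 has libraries paired by animal, from 2 animals. In the other paired comparisons the block changed no count. Without single libraries the counts ran from 1 to 8 in Immature 1Mek2, 3 to 8 in GC 1Mek2, 3 to 6 in Plasma 1Mek2, 1 to 8 in Immature wt, 3 to 6 in GC wt, 0 to 3 in ABC wt and 3 to 6 in Plasma wt, and without single animals the average called 1 to 2. The Plasma wt count was 5 without Follicular_wt replicate 4 and 6 without Plasma_wt replicate 2. Type 2 libraries alone were not run for Plasma between genotypes or in wt, where 1 wt library is of type 2. Tnfrsf17 counts outside Plasma limit what can be seen of that gene.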
